A study of Danio rerio with 4 samples.

Results

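Whole zebrafish (Danio rerio) larvae at 96 hours post fertilization (hpf) were compared with whole embryos at 24 hpf on one-colour Agilent arrays, which read the brightness of Cy3-labelled RNA bound to short DNA probes. The comparison used all 4 arrays of the series, namely the 2 whose titles give 96 hours and the 2 whose titles give 24 hours. At each age, 1 array held animals kept without added copper (0 µM) and 1 held animals kept in 3.9 µM copper, and treatment entered the fit as a covariate. The animals came from natural spawning in a colony held on a light and dark cycle, and no strain, transgene or mutation is named for any group. Of 43569 probes read, 36026 exceeded background clearly on 2 or more of the 4 arrays and were tested. The brightest of these probes for each named gene gave values for 12332 genes, of which 3342 belonged to at least 1 of 89 gene families described here.

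At 24 hpf the zebrafish embryo has formed most of its somites and its main brain divisions, still divides rapidly in many tissues and has not hatched. By 96 hpf it is a free-swimming larva with working eyes, striped muscle, circulating blood and a gut, liver and pancreas that take over from the yolk. Many zebrafish genes exist as duplicates named a and b, and multigene families such as globins, troponins and crystallins hold embryonic and larval members that follow each other in time.

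The median processed signal was 162.3 on the 24 hpf control array, 366.8 on the 24 hpf copper array, 194.5 on the 96 hpf control array and 190.4 on the 96 hpf copper array, and between 76.9% and 83.6% of probes were well above background. Over the tested probes the normalized log2 signals correlated at r = 0.970 between the 24 hpf arrays and r = 0.977 between the 96 hpf arrays, and between 0.806 and 0.880 across ages. These correlations are across probes, which are not independent replicates. The treatment in the sample labels is opposite to the one in the deposited file names at both ages, and values here follow the labels. Because each age holds 1 array of each label, an exchange at both ages leaves the age difference as it is. The direction of any gap given here between the copper and control arrays of one age would turn if the file names are right. Age differences given for each treatment would then change places.

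Values are log2 of the normalized signal, a difference is 96 hpf minus 24 hpf, and where 2 values are given for an age the control array comes first. A gene was called where the Benjamini-Hochberg adjusted p of limma's moderated test, taken over all 36026 probes, was under 0.05. By this rule 2136 genes rose (17.3% of those tested), 1857 fell (15.1%) and 8339 did not pass. Without the 96 hpf copper array 1021 genes fell. The median difference over all genes was -0.10, and it was -0.00 when arrays were scaled to the 75th percentile, so family medians are to be read against a centre near 0. Among called genes, 1311 that rose and 525 that fell differed by at least 4-fold. No called gene moved in opposite directions between ages in the control and the copper arrays. The test takes the gap between these age differences as its residual, so a gene with opposite signs could hardly be called. The other probes of a gene moved the same way in 2278 of 2374 called genes with more than 1 tested probe (96.0%). The fit leaves 1 residual degree of freedom per probe. It holds the gap between the control and copper age differences together with array scatter, and the rest is borrowed across probes. Nothing states that the arrays came from separate clutches, so p-values do not measure scatter between clutches. In whole animals, fewer cells of a type and less RNA per cell cannot be told apart. Signals of different genes are not compared, since each probe has its own brightness, and near-identical duplicates may share signal. For a gene dim (not well above background) on both arrays of one age, the words at least mark a bound. That bound uses the mean of the other age and holds in the main normalization only.

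The age labels were set against genes known to mark each stage. Of 15 embryo markers tested, 14 were lower at 96 hpf and 1 did not pass the test. Of 12 larval markers tested, 10 were higher, 1 was lower and 1 did not pass. The larval marker that went against its label was fabp2, an intestinal fatty acid binding protein. Its log2 signal was 16.49 and 16.27 on the 24 hpf control and copper arrays and 13.82 and 15.44 on the corresponding 96 hpf arrays. Both larval values lay below both embryonic values. The markers that did not pass were the embryonic globin hbae3, with a difference of 0.00, and the myelin protein gene mpz, with a difference of 1.02. Of 4 further genes followed with the stage markers, the growth hormone gene gh1 rose by 2.99, the egg envelope gene zp2.1 fell by 2.03 on the log2 scale, and zp3b (-0.29) and the yolk protein gene vtg2 (-0.24) did not pass. The yolk gene vtg2 had log2 signals of 6.02 and 5.36 at 24 hpf and 5.42 and 5.48 at 96 hpf, which overlap.

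**Figure D1:**
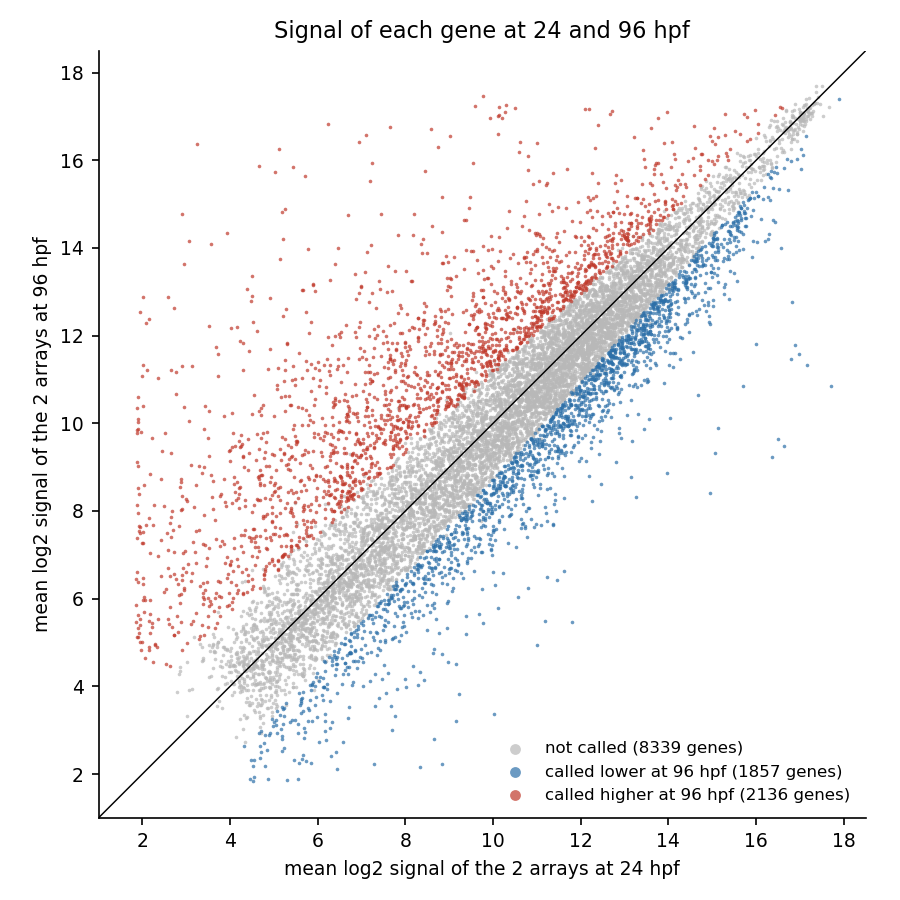
Mean log2 signal of each tested gene at 24 hpf (horizontal axis) and at 96 hpf (vertical axis), with genes called higher or lower at 96 hpf coloured and the rest in grey. The 2136 genes called higher lie above the diagonal and reach farther from it at low 24 hpf signal than the 1857 called lower lie below it.

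Among the single genes with the largest differences were enzymes and carriers. AMP deaminase (ampd1), a nucleotide enzyme of working muscle, had log2 signals of 5.95 and 4.92 at 24 hpf and 15.68 and 16.03 at 96 hpf. The transcobalamin gene tcnba, a vitamin B12 carrier, had 3.21 and 2.68 at 24 hpf, neither well above background, against 12.54 and 14.71 at 96 hpf. Every larval value of these 2 genes lay above every embryonic value. The difference of ampd1 was 10.42 ± 0.45 (SE; limma adjusted p = 3.6e-07, n = 2 arrays per age), and tcnba rose at least 809-fold. Among falling genes, the cathepsin-like gene ctsll had 15.20 and 14.71 against 9.03 and 7.80. The cytochrome cyp11a1.1, the side-chain cleavage enzyme that starts steroid synthesis from cholesterol, had 12.04 and 11.55 against 5.51 and 5.45. Both fell with no overlap between ages, by 6.53 ± 0.37 and by 6.32 ± 0.45 on the log2 scale.

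Of the 89 families, 53 had more members called higher than lower, 33 had more called lower and 3 had equal numbers. In 12 families no member was called lower and in 12 no member was called higher. Over all members of any family, 875 genes rose and 601 fell, and 302 genes belonged to more than 1 family. A member that was above background only on the larval arrays had to differ, so the counts below are descriptions. Named genes were mostly picked for large called differences. That their ages do not overlap largely follows from this choice and adds no support. Members dim at 24 hpf numbered 9 in exocrine pancreas, 8 in lens crystallins, 7 each in neurotransmitter receptors and solute carriers, 6 in olfactory genes, 5 each in neuropeptides, phototransduction and cytochrome P450, 4 each in opsins and the thin filament, and 3 each in synaptic vesicles, transmitter synthesis and ionocytes. Members dim at 96 hpf numbered 5 each in FGF genes and solute carriers, 4 each in somite, BMP and olfactory genes, and 3 each in homeobox and junction genes. Leaving out 1 array at a time, with age alone in the fit, moved the count in the more frequent direction by over 1.5 times in 40 of the 89 families, 18 counted as higher and 22 as lower. For the families below, each such count is given with the array left out.

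**Figure D2:**
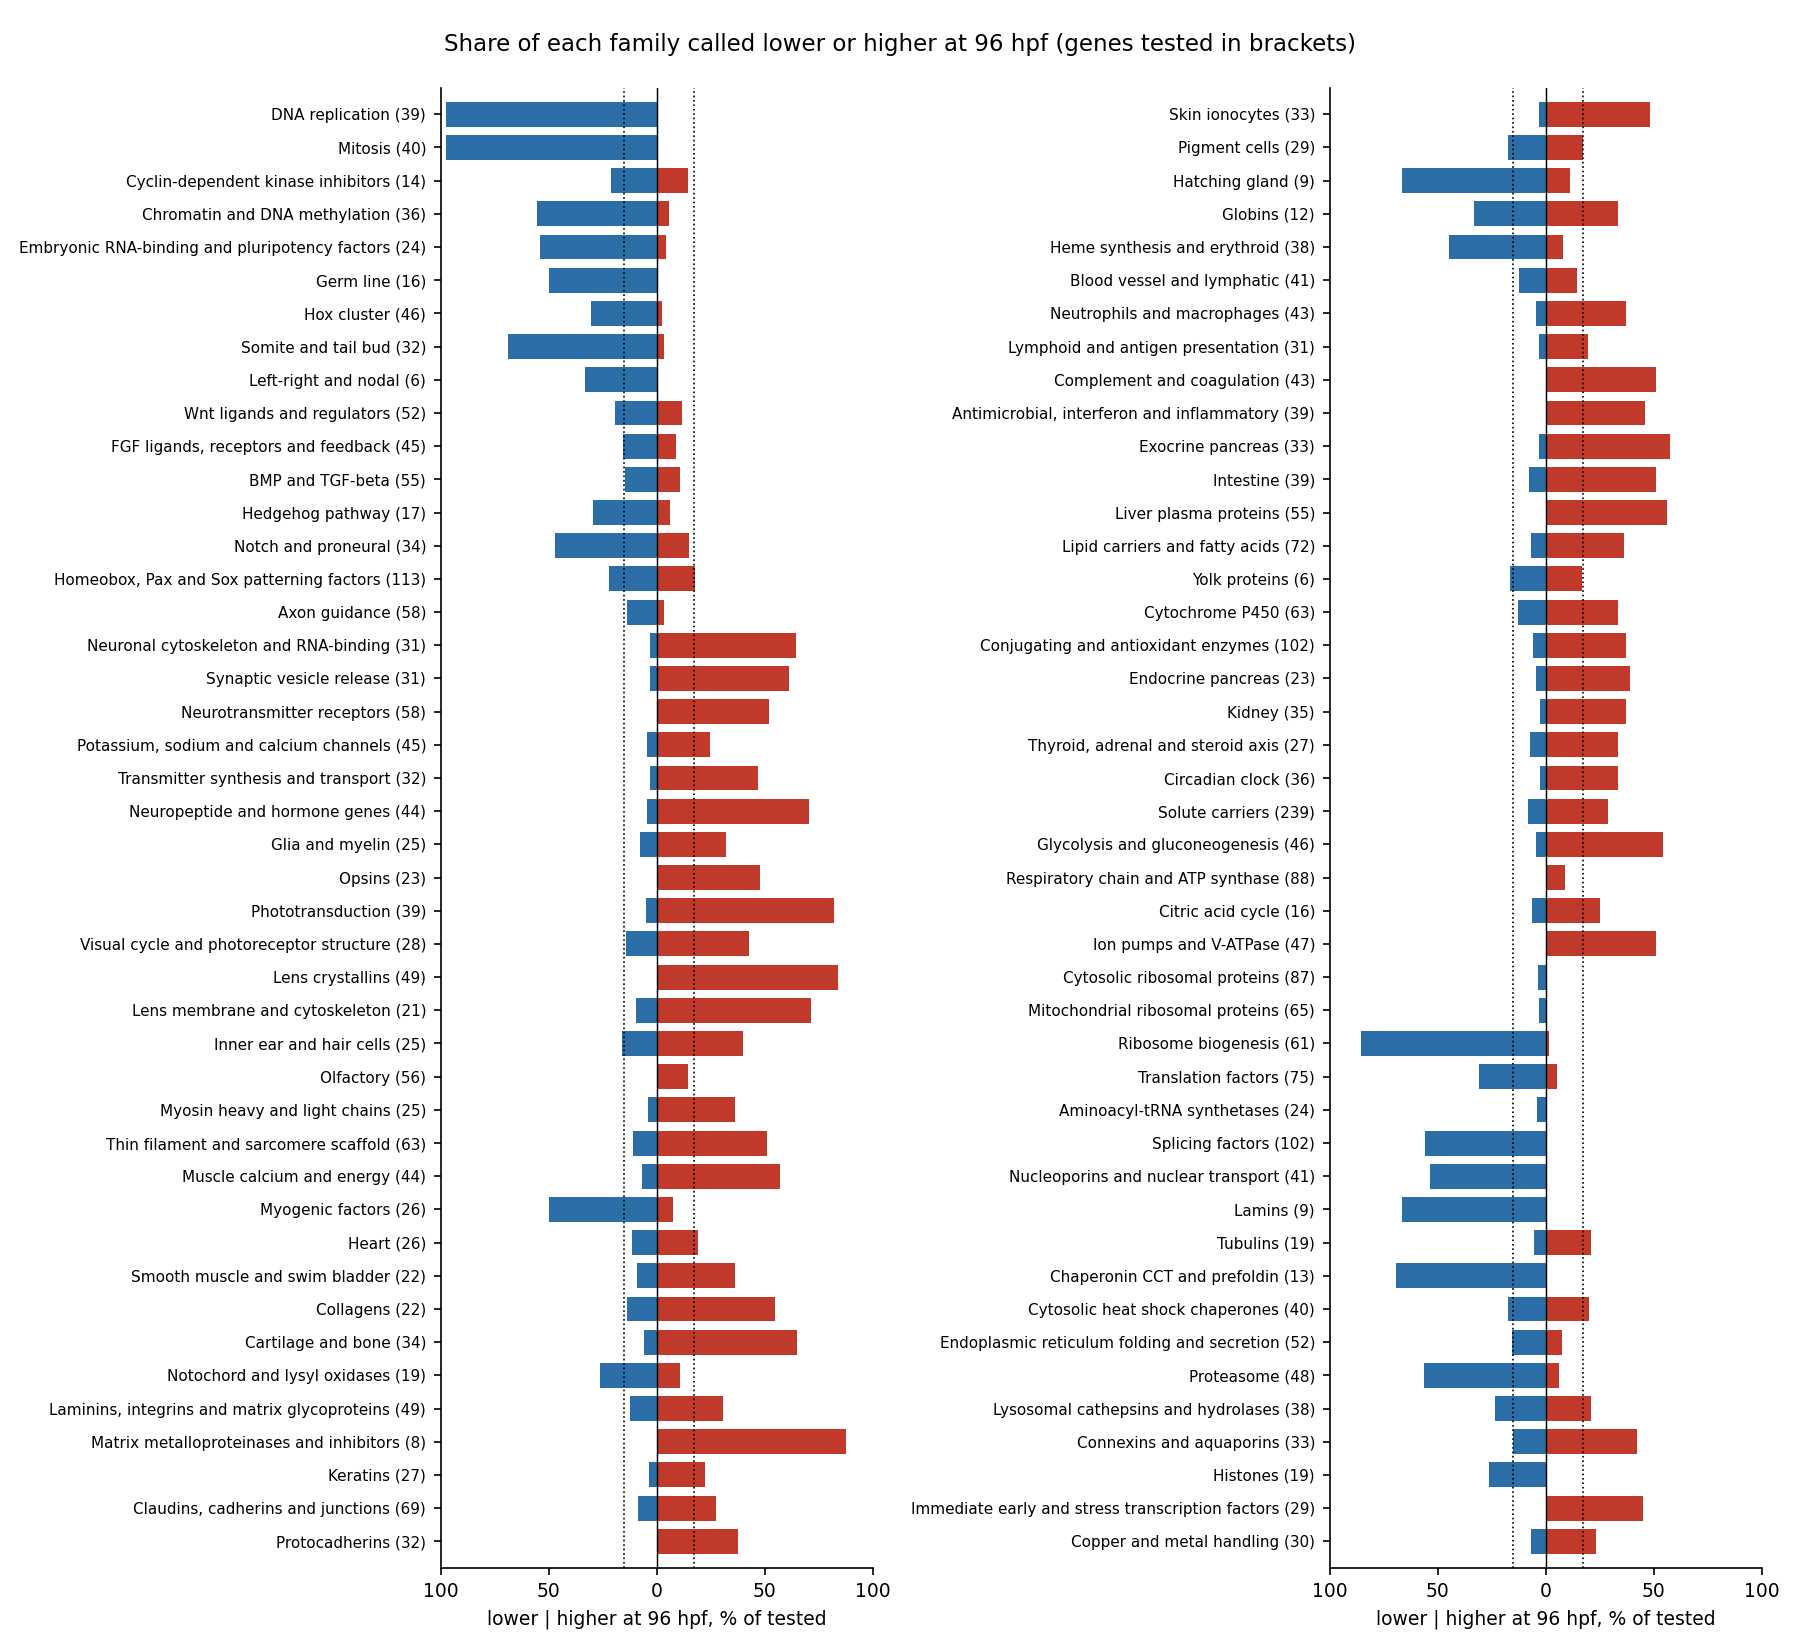
Share of tested genes in the gene families called lower (left of 0) and higher (right of 0) at 96 hpf, in percent, grouped by theme; dotted lines mark the shares over all genes, 15.1% lower and 17.3% higher. DNA replication, mitosis and ribosome biogenesis reach farthest to the left, and lens crystallins, phototransduction and matrix metalloproteinases farthest to the right.

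Genes of DNA replication and mitosis were lower in larvae almost without exception. Of 39 replication genes tested, 38 fell, and of 40 mitosis genes, 39 fell, with median differences of -2.03 and -1.81. The mitosis genes that fell numbered 22 without the 24 hpf copper array. The replication initiation factor mcm10 had log2 signals of 10.77 and 10.82 at 24 hpf and 8.45 and 7.71 at 96 hpf. Geminin (gmnn), which blocks a second round of licensing, had 13.24 and 13.06 against 10.50 and 10.56, and the mitotic kinase aurka had 13.25 and 13.23 against 11.42 and 10.36. In all 3 genes the embryonic values were close together and above both larval values. The differences were -2.71 ± 0.44 for mcm10, -2.62 ± 0.35 for gmnn and -2.35 ± 0.37 for aurka (SE). Mitosis genes were lower on the 96 hpf copper array than on the 96 hpf control array in 39 of 40 cases, with a median gap of -0.73. Over all genes, 5422 of 12332 were higher on that copper array (median gap -0.05), as were 251 of the 1857 that fell with age. This sets 1 array against 1 array, so genes are not replicates, and what the gap comes from was not tested. The list of cyclin-dependent kinase inhibitors, which also held growth arrest genes, had calls in both directions: of 14 tested, 2 rose and 3 fell. These were 14.3% and 21.4%, against 17.3% and 15.1% over all genes. With no filter on dim probes 0 rose and 2 fell, and in the fit without a trend 0 rose and 3 fell. The inhibitor cdkn1ca fell by 1.82 and the growth arrest gene gadd45ba rose by 1.55, the latter with 10.06 and 11.62 on the larval arrays.

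Chromatin regulators were mostly lower, with 20 of 36 falling and 2 rising. The number that fell was 13, 11 and 13 without the 24 hpf control array, the 24 hpf copper array and the 96 hpf copper array. The de novo DNA methyltransferase dnmt3bb.2 had 12.08 and 12.37 at 24 hpf and 9.82 and 9.04 at 96 hpf, and the high mobility group gene hmgb2a had 14.34 and 15.55 against 12.70 and 11.82. Both were lower on each larval array than on either embryonic array, by 2.80 ± 0.42 and 2.68 ± 0.43 on the log2 scale. The pair that rose was cbx1b, a heterochromatin protein (difference 1.94), and ezh1, a histone methyltransferase of the Polycomb complex (1.60). Embryonic RNA-binding and pluripotency factors fell in 13 of 24 cases. The repressor of let-7 microRNAs lin28ab had 9.45 and 8.87 against 5.07 and 3.92, the last value not well above background, a difference of -4.66 ± 0.49. The neural plate factor zic2b had 13.43 and 12.92 against 9.90 and 9.32, and sox3, a factor of neural progenitors, differed by -2.80. The neural RNA-binding gene msi2b moved the other way, with 12.60 and 12.09 against 13.85 and 14.15. Of 16 germ line genes, 8 fell and none rose, among them the germ cell RNA-binding gene nanos3 (10.12 and 9.35 against 6.86 and 7.29) and dnd1, which fell at least 3.16-fold to a level not well above background. Without the 24 hpf control array or the 24 hpf copper array, 4 and 5 germ line genes fell. Of 19 histone genes, 5 fell, which became 1 and 3 without the 24 hpf copper array and the 96 hpf copper array, with replication-linked hist2h3c at 16.14 and 16.49 against 15.40 and 14.78 and the variant h2az2b at 15.77 and 16.07 against 14.63 and 13.67.

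Genes for making ribosomes were mostly lower, while the median of the ribosomal proteins lay close to that of all genes. Ribosome biogenesis genes fell in 52 of 61 cases with a median of -1.37. Nucleophosmin (npm1b), a nucleolar chaperone, had 11.28 and 11.42 at 24 hpf and 8.88 and 8.87 at 96 hpf, and fibrillarin (fbl), which methylates ribosomal RNA, had 13.25 and 13.91 against 11.75 and 11.14. Each age formed a tight pair for npm1b, and the fall was 2.47 ± 0.41 for npm1b and 2.14 ± 0.38 for fbl on the log2 scale. The helicase ddx27 was the single member called higher, at 1.61, and only 1 of its 3 probes had that sign. Of 87 cytosolic ribosomal protein genes, 3 fell and none rose, and 5 and 1 fell without the 24 hpf control array and the 96 hpf copper array. Their differences ran from -1.36 to 0.32 around a median of -0.12, which became 0.24 with 75th-percentile scaling. The members that fell were rps3 (-0.76), rpl28 (-0.73) and, with the lowest value, rpl7l1 (-1.36), a ribosomal protein-like gene that the name pattern took in. Of 65 mitochondrial ribosomal protein genes, 2 fell, around a median of -0.35, and 1, 0 and 0 fell without the 24 hpf control array, the 24 hpf copper array and the 96 hpf copper array. Aminoacyl-tRNA synthetases, which charge tRNAs, fell in 1 of 24 cases, that of the associated factor aimp1b (-2.05), and in 2, 2 and 3 without the 24 hpf control array, the 24 hpf copper array and the 96 hpf control array. Translation factors fell in 23 of 75 cases and rose in 4, with initiation factor eif1b at 12.42 and 11.51 against 10.10 and 10.32. With no filter on dim probes 4 fell, and in the fit without a trend 3 fell. Without the 24 hpf copper array or the 96 hpf copper array, 11 and 9 translation factors fell.

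Elongation factor 1 alpha genes separated within the family. The form eef1a1l1 had 17.29 and 17.43 at 24 hpf and 17.75 and 17.66 at 96 hpf, a difference of 0.35 that did not pass the test (limma adjusted p = 0.123), and 5 of its 10 probes had that sign. The form eef1a1a had 7.93 and 7.25 against 12.41 and 13.60, and eef1a2, the form of muscle and neurons in mammals, had 6.41 and 6.20 against 9.48 and 10.01. Their rises were 5.41 ± 0.50 and 3.44 ± 0.48, with no overlap between ages. The gene eef1a1l1 was chosen after its values were seen, as the partner of the other 2.

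Genes of RNA splicing, nuclear transport and protein turnover were lower where they were called, with a few exceptions, and their counts changed when single arrays were left out. Splicing factors fell in 57 of 102 cases and none rose, with a median of -0.96. The number that fell was 27, 28 and 21 without the 24 hpf control array, the 24 hpf copper array and the 96 hpf copper array, and 21 in the fit without a trend. The splicing regulator srsf3a had 10.15 and 10.59 against 8.34 and 7.43, and u2af2a, which recognizes the 3′ splice site, differed by -2.34. Nucleoporins and transport factors fell in 22 of 41 cases, led by ranbp1, a regulator of the Ran cycle, at 13.83 and 14.36 against 12.10 and 11.10. Without the 24 hpf copper array or the 96 hpf copper array, 13 and 10 of them fell. Lamins and partners of the nuclear envelope fell in 6 of 9 cases, and in 2 without the 24 hpf copper array, including lamin B receptor (lbr, -1.87) and lmnb1 (-1.59). The cytosolic chaperonin and its partner prefoldin fell in 9 of 13 cases with differences of -1.56 to -0.54. The number that fell was 2, 0 and 1 without the 24 hpf control array, the 24 hpf copper array and the 96 hpf copper array, 0 with no filter on dim probes and 1 without a trend. Proteasome genes fell in 27 of 48 cases with a median of -0.77. The number that fell was 5, 6 and 3 without the 24 hpf control array, the 24 hpf copper array and the 96 hpf copper array, 5 with no filter and 0 without a trend. The regulatory subunit psmd8 had a mean of 12.31 at 24 hpf against 11.21 and 10.48 at 96 hpf. The 3 that rose stood apart: psma6l had 4.79 and 4.53 against 8.66 and 8.96, psme2 had 8.04 and 7.32 against 9.98 and 9.99, and psme1 differed by 2.25. The gene psme1 was chosen after its values were seen. In mammals psme1 and psme2 form the activator cap that interferon induces. These 3 genes had larval values above both embryonic values.

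**Figure D3:**
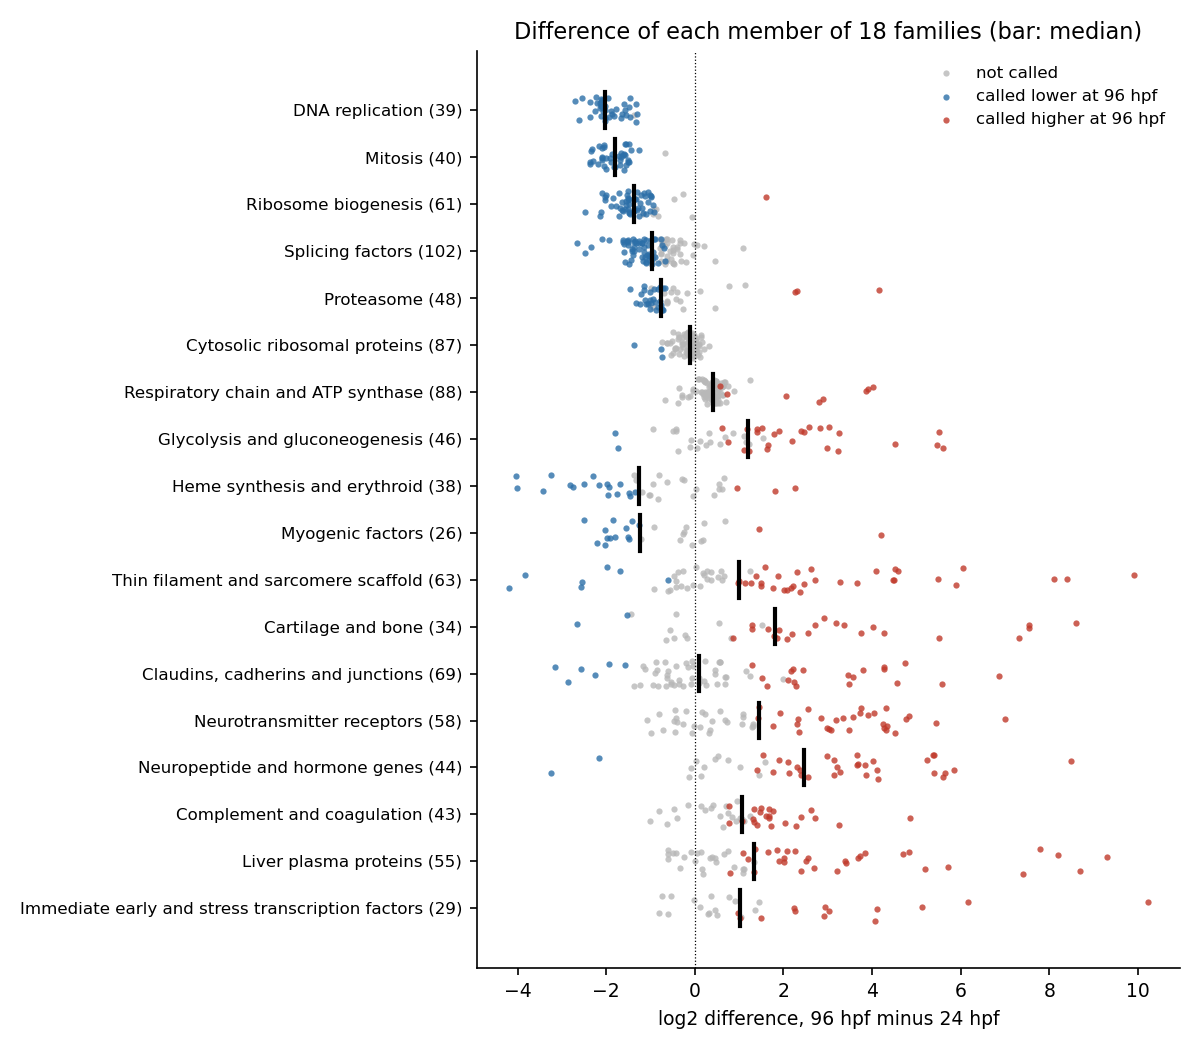
Differences between 96 and 24 hpf (log2, horizontal axis) of each tested member in selected families (rows); points are genes, coloured by whether they were called. Cytosolic ribosomal proteins stay between -1.36 and 0.32, while ribosome biogenesis genes centre on -1.37 and neurotransmitter receptor genes on 1.44. Genes dim at one age are drawn at their measured difference.

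Of 46 Hox genes, which set position along the body axis, 14 fell and 1 rose, and 9 and 5 fell without the 24 hpf control array and the 96 hpf copper array. The paralogue group nearest the head showed the largest fall, with 3 of 4 members called and a median of -2.17. The gene hoxb1a, which marks a single hindbrain segment, had 9.42 and 9.34 at 24 hpf and 5.29 and 5.92 at 96 hpf, a difference of -3.78 ± 0.48. Group 9 fell in 3 of 5 cases, including hoxb9a at 9.32 and 10.19 against 6.97 and 7.16, and group 13 in 3 of 6. Group 5 held the only gene that rose: hoxb5a had 11.40 and 10.63 against 12.50 and 12.34, a difference of 1.41 ± 0.36 on 3 of 3 probes. The call of hoxb5a was lost when detected probes were averaged and in the fit without a trend, where 0 Hox genes rose. The median of the 4 members of group 5 was 0.26. No member of groups 3, 7, 10 or 12 was called.

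**Figure D4:**
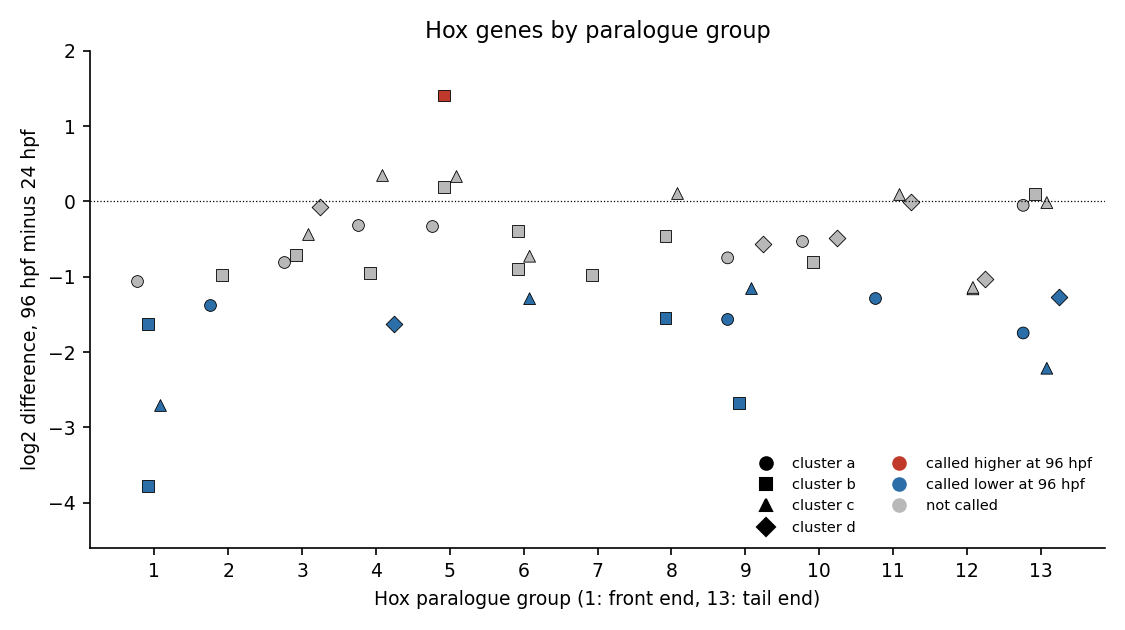
Differences between 96 and 24 hpf (log2, vertical axis) of 46 Hox genes by paralogue group from 1 to 13 (horizontal axis), coloured by call. Group 1 lies lowest with a median of -2.17, and hoxb5a in group 5 is the single gene called higher.

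Genes of the somite clock and tail bud fell in 22 of 32 cases. The tail bud homeobox gene cdx4 had 11.22 and 11.25 against 5.86 and 7.15, and the T-box gene tbx16, needed for trunk mesoderm, had 9.80 and 8.96 against 4.97 and 5.41. Both larval values were far below both embryonic ones, with differences of -4.73 ± 0.48 and -4.19 ± 0.52. The list's one rising gene was cdx1b (4.12), which is also a factor of the intestine and was chosen after its values were seen. Myogenic factors fell in 13 of 26 cases: myf6 had 9.43 and 9.41 against 7.09 and 6.77, and myog had 13.64 and 13.24 against 11.61 and 11.21. The 2 that rose were mstnb, the myostatin gene that limits muscle growth (5.69 and 4.94 against 9.11 and 9.93), and the enhancer factor mef2aa (1.44).

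Signalling pathways had members on both sides. Wnt ligands, receptors and regulators fell in 10 of 52 cases and rose in 6. The ligand wnt11f2, which guides convergence movements, had 10.83 and 10.65 at 24 hpf and 7.91 and 7.31 at 96 hpf. The secreted Wnt antagonist frzb had 5.07 and 4.76 against 8.32 and 8.22, and the Wnt enhancer rspo1 had a mean of 6.45 against 9.14 and 9.56. FGF genes fell in 7 of 45 cases and rose in 4, with the ligand fgf8a differing by -1.49 and fgf12a, an intracellular FGF that binds sodium channels in mammals, rising at least 20.4-fold. BMP and TGF-beta genes fell in 8 of 55 and rose in 6, with the antagonist nog3 at 7.43 and 7.29 against 9.89 and 9.46 and the inhibitor of basic helix-loop-helix factors id4 at 11.22 and 11.02 against 13.54 and 13.28. Hedgehog genes fell in 5 of 17 cases. The signal transducer smo had 12.68 and 12.23 against 10.17 and 9.49. The cartilage ligand ihha was the one that rose, with 7.64 and 9.27 on the larval arrays against 6.76 and 6.33. The call of ihha was lost with no filter on dim probes and in the fit without a trend, and in both 0 Hedgehog genes rose. For Wnt, FGF and BMP genes the share called in either direction was below the 32.4% over all genes. Without the 96 hpf copper array, 6 Wnt genes fell, without the 24 hpf control array 4 BMP genes fell, and 4 FGF genes fell without the 24 hpf control array, the 24 hpf copper array or the 96 hpf copper array.

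Of 34 Notch and proneural genes tested, 16 fell and 5 rose, and 10 fell without the 24 hpf copper array. The Notch target her8a had 14.16 and 13.90 against 10.53 and 9.72, the neurogenesis gene neurog1 differed by -2.88 and the hair cell and cerebellar gene atoh1a had 9.08 and 9.52 against 6.58 and 6.35. All 3 were lower on both larval arrays. Among the genes that rose, the neuronal factor neurod6a had 7.75 and 6.86 against 11.91 and 11.99, a rise of 4.64 ± 0.45, and neurod2 rose at least 52.0-fold from a level not well above background at 24 hpf. Among 113 homeobox, Pax and Sox factors, 20 rose and 25 fell, or 17.7% and 22.1% against 17.3% and 15.1% over all genes, and 15 fell without the 96 hpf copper array. The photoreceptor factor six7 had 6.52 and 5.37 against 13.04 and 13.01, and the forebrain factor foxg1b had 9.25 and 8.70 against 13.61 and 13.76. The midbrain and hindbrain factor pax5 had a mean of 8.77 at 24 hpf against 5.52 and 4.90. The ages did not overlap in these 3 genes.

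Synaptic vesicle genes rose in 19 of 31 cases and fell in 1, with a median of 2.33 (1.70 with bounds for 3 genes dim at 24 hpf). The calcium sensor syt5b had a mean of 5.43 at 24 hpf and 11.09 and 11.51 at 96 hpf, the membrane fusion protein snap25b had 6.18 and 6.68 against 11.07 and 11.41, and the vesicle protein sypb had 8.22 and 7.56 against 12.45 and 12.80. The larval arrays differed from each other by far less than from the embryonic ones in each. Their rises were 5.87 ± 0.51, 4.81 ± 0.44 and 4.74 ± 0.43. The exception was syngr1a, a vesicle membrane protein, at 8.71 and 9.45 against a mean of 7.38. Genes of axon guidance, the receptors and ligands that steer growing axons, were called in 10 of 58 cases, 2 higher and 8 lower, below the 32.4% over all genes. Without the 96 hpf copper array, 3 guidance genes fell. The ephrin receptor epha2a had 11.12 and 11.72 against 8.55 and 8.23, and contactin cntn1b, an adhesion protein of axons and myelin contacts, had 7.06 and 5.88 against 11.17 and 11.45. The median of the guidance list was -0.10 and turned to 0.08 with 75th-percentile scaling. Neuronal cytoskeleton and RNA-binding genes rose in 20 of 31 cases, with dpysl5b at 10.29 and 9.71 against 13.17 and 13.92 and the neurofilament neflb at 5.84 and 5.71 against 8.70 and 8.83.

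Receptors for neurotransmitters rose in 30 of 58 cases and none fell, with a median of 1.44, and 18 rose among genes well above background on all 4 arrays. The NMDA receptor gene grin1b had 7.38 and 7.38 at 24 hpf and 11.82 and 12.61 at 96 hpf on its brightest probe, and 6 of 6 probes agreed in sign. The AMPA receptor gene gria2b had 6.82 and 6.33 against 11.13 and 11.54, and the GABA receptor subunit gabrb2a had 6.98 and 6.05 against 11.45 and 12.50. A second GABA receptor subunit, gabra6a, which in mammals belongs to cerebellar granule cells, rose at least 68.2-fold. The muscle-type acetylcholine receptor subunits chrna1 (-0.40), chrnb1 (-0.43) and chrnd (-0.81), chosen after their values were seen, did not pass the test. Voltage-gated channels rose in 11 of 45 cases and fell in 2. The channel accessory subunit cacng2a, which carries AMPA receptors to synapses in mammals, had 8.85 and 8.50 against 12.18 and 12.72. Among genes of transmitter synthesis and transport, 15 of 32 rose and 1 fell. The GABA transporter slc6a1a had 8.59 and 7.82 against 14.50 and 15.06, a rise of 6.57 ± 0.41, and the GABA synthesis enzyme gad1b had 8.94 and 8.01 against 12.26 and 13.09. The glial glutamate transporter slc1a2b had 12.49 and 12.17 against 16.13 and 16.44, while slc1a3a, the other glial type, had 15.19 and 14.83 against 12.63 and 12.72 and was the list's only gene that fell. The vesicular glutamate transporters slc17a6b (-0.00) and slc17a7a (-0.03), also chosen after their values were seen, did not pass.

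Neuropeptide and hormone genes rose in 31 of 44 cases and fell in 2. Among genes well above background on all 4 arrays, 21 rose and 0 fell. The precursor pomca, source of the stress hormone that drives the interrenal gland, had 5.95 and 5.34 against 10.66 and 11.41, and the feeding peptide cart2 had 4.54 and 3.85 against 8.96 and 10.23. Larval values exceeded embryonic values for both, by 5.39 ± 0.50 and 5.40 ± 0.57. The intestinal peptide vipb rose at least 83.9-fold and the melanin-concentrating hormone gene pmchl at least 27.1-fold from levels not well above background. The genes that fell were pomcb and insb: pomcb fell at least 3.54-fold and insb, a second insulin gene, at least 2.56-fold, while ins itself rose from 11.00 and 10.35 to 12.42 and 12.73. Of 44 members, 40 were higher on the 96 hpf copper array than on the 96 hpf control array, by a median of 0.58. Over all genes this held for 5422 of 12332.

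Glial and myelin genes were mixed, with 8 of 25 higher and 2 lower. The myelin claudin cldnk had 8.75 and 8.15 against 11.45 and 12.61, and the radial glia fatty acid binding protein fabp7a had 14.09 and 14.07 against 16.51 and 16.35. The proteolipid gene plp1a went the other way on 7 of 7 probes, with 13.38 and 13.38 against 10.95 and 10.79. The glial progenitor factor olig4 had 11.11 and 11.27 against 8.30 and 7.86.

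In the eye, phototransduction genes rose in 32 of 39 cases, with 5 members dim at 24 hpf, and lens crystallins in 41 of 49, with 8 dim. The photoreceptor factor crx had 8.29 and 7.36 at 24 hpf and 14.65 and 13.95 at 96 hpf. Retinoschisin (rs1a), which holds retinal layers together, had 5.45 and 4.95 against 14.25 and 14.16, the largest rise of the visual cycle and photoreceptor structure list at 9.01 ± 0.42. In that list 12 of 28 rose and 4 fell. The retinoid carrier rbp3 had 4.96 and 3.90 against 9.77 and 13.51, so its larval arrays stood farther apart than its embryonic ones. The lens protein lgsn rose at least 306-fold, and the lens progenitor factor foxe3 fell, with 10.42 and 9.86 against 7.91 and 7.68. Lens crystallins differed little between the larval arrays (median gap 0.06). Phototransduction genes were higher on the 96 hpf copper array in 35 of 39 cases, by a median of 1.40, against 5422 of 12332 over all genes.

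Genes of the inner ear rose in 10 of 25 cases and fell in 4, and 6 rose without the 24 hpf copper array. The otolith matrix gene oc90 had 14.29 and 13.66 at 24 hpf and 9.17 and 8.56 at 96 hpf, a fall of 5.11 ± 0.36 on 4 of 4 probes. The tectorial protein gene tectb had 6.94 and 6.38 against 10.26 and 10.16, and the hair cell factor pou4f3 rose at least 9.95-fold. Of 163 olfactory genes on the array, 56 were tested and 8 rose, which is 14.3% against 17.3% over all genes. Among those well above background on all 4 arrays 3 rose, and 5 rose without the 24 hpf copper array. Olfactory marker protein (ompa), found in mature olfactory neurons, rose at least 12.7-fold, and the odorant receptor or64b2 had 4.92 and 4.14 against 5.95 and 6.63.

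Contractile and energy genes of muscle were often higher in larvae, while several related genes fell or did not pass the test. Thin filament and sarcomere genes rose in 32 of 63 cases and fell in 7. The fast troponin I gene tnni2b.2 had 6.21 and 5.23 at 24 hpf and 15.30 and 15.98 at 96 hpf, a rise of 9.92 ± 0.47. Its neighbour in name tnni2b.1 had 16.43 and 16.17 against 14.03 and 14.61, a fall of 1.98 ± 0.25. The troponin T gene tnnt2c fell further, from 16.14 and 15.87 to 12.26 and 11.35. None of these 3 genes overlapped between ages. Some genes that act in thick filament assembly were lower: the myosin methyltransferase smyd1b had 11.45 and 13.46 against 8.62 and 8.63, its muscle chaperone hsp90aa1.1 had 16.64 and 16.48 against 13.93 and 14.06, and the myosin chaperone unc45b had 14.12 and 14.20 against 11.81 and 11.41. Myosin chains rose in 9 of 25 cases, and the fast heavy chain myhz1.1 had 16.73 and 16.61 against 17.12 and 17.13, a difference of 0.45 that did not pass the test (limma adjusted p = 0.0685). The genes tnni2b.1, unc45b and myhz1.1 were chosen after their values were seen.

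Muscle calcium and energy genes rose in 25 of 44 cases and fell in 3. The mitochondrial creatine kinase ckmt2b had 9.75 and 9.32 at 24 hpf and 15.57 and 16.29 at 96 hpf, and the calcium buffer pvalb7 had 8.86 and 7.87 against 13.11 and 15.06. Both were higher on each larval array. The sarcoplasmic calcium pump atp2a1l had 10.73 and 11.73 against 15.26 and 15.72, with 6 of 6 probes rising, while atp2a1, chosen after its values were seen, had 16.76 and 16.99 against 17.09 and 17.21 and did not pass. The calcium-binding gene srl differed by -2.40. Heart genes rose in 5 of 26 cases and fell in 3, close to the shares over all genes, and 3 rose without the 24 hpf copper array. The stress-responsive gene ankrd1b had 8.40 and 7.01 against 12.42 and 13.64, and the flow-responsive factor klf2a had 10.92 and 10.57 against 12.89 and 14.46. The cardiac factor nkx2.7 fell, with 11.21 and 10.54 against 8.21 and 7.44. Smooth muscle genes rose in 8 of 22 cases, with smooth muscle actin acta2 at 8.95 and 8.27 against 13.76 and 15.23, transgelin (tagln) at 5.45 and 5.05 against 10.75 and 12.14, and the smooth muscle myosin myh11a at 9.28 and 8.65 against 12.63 and 13.66. These 3 were higher in larvae by 5.89 ± 0.49, 6.20 ± 0.53 and 4.18 ± 0.46.

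Cartilage and bone genes rose in 22 of 34 cases and fell in 2. Matrilins, which link cartilage fibres, were among them: matn3a had 5.12 and 5.17 at 24 hpf and 13.65 and 13.87 at 96 hpf, and matn1 had 9.23 and 8.80 against 16.52 and 16.60. Each age formed a tight pair, and the rises were 8.62 ± 0.43 and 7.54 ± 0.32. The tooth enamel gene enam had 4.55 and 4.04 against 11.17 and 12.49. The mineralization phosphatase phospho1 fell, from 9.46 and 9.06 to 6.51 and 6.68, as did the calcification inhibitor mgp (-1.53). Collagens rose in 12 of 22 cases and fell in 3. The skin collagen of hemidesmosomes col17a1a had 5.93 and 5.86 against 13.21 and 13.16, col10a1a, of bone and cartilage surfaces, had 6.09 and 5.71 against 12.84 and 13.47, and cartilage col9a1a had 4.82 and 5.89 against 10.91 and 10.32. The fibril collagen col5a3a had 11.47 and 11.47 against 6.65 and 6.22, a fall of 5.03 ± 0.44. Matrix metalloproteinases and their inhibitors rose in 7 of 8 cases, with mmp23bb at 8.23 and 7.61 against 11.15 and 11.27.

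Notochord genes fell in 5 of 19 cases, among them the notochord factor noto (9.44 and 8.46 against 6.39 and 6.29), while the matrix cross-linking enzyme loxa rose from 4.80 and 3.79 to 10.88 and 11.53. Laminins, integrins and matrix glycoproteins rose in 15 of 49 cases and fell in 6. The secreted glycoprotein sparcl1 had 6.50 and 6.06 against 11.09 and 11.10, and the fibronectin receptor subunit itga5 had 7.96 and 8.34 against 6.58 and 5.38. The fin fold gene frem2a fell at least 2.37-fold to a level not well above background. Of 27 keratins, 22.2% rose and 3.70% fell, against 17.3% and 15.1% over all genes, around a median of 0.24. Keratins rose in 6 of 27 cases, and in 11 without the 96 hpf control array, with krt15 at 11.12 and 10.69 against 14.97 and 15.96, and fell in 1, krt99, at 12.49 and 11.99 against 9.41 and 10.94. Claudins, cadherins and other junction genes rose in 19 of 69 cases and fell in 6: the tight junction gene cldn7a had 7.89 and 6.53 against 13.83 and 14.31, and cldng had 9.08 and 8.29 against 5.80 and 5.27. Protocadherins, neuronal adhesion proteins in large clusters whose members may share signal, rose in 12 of 32 cases and none fell, with pcdh1a4 at 11.40 and 11.46 against 14.28 and 14.21.

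Genes of skin ionocytes, the cells that take up and excrete ions before the gill works, rose in 16 of 33 cases and fell in 1. Without the 24 hpf control array, the 24 hpf copper array or the 96 hpf copper array, 10 rose. The ammonia channel rhcga had 7.75 and 9.05 at 24 hpf and 12.36 and 12.12 at 96 hpf. The sodium pump subunit atp1a1a.5 rose at least 162-fold from 2 dim embryonic values, and larval values were 10.78 and 11.82. The carbonic anhydrase ca15b went the other way, with 7.90 and 6.79 against 4.64 and 4.79. Pigment cell genes were called in 10 of 29 cases, 5 in each direction, or 17.2% each against 17.3% higher and 15.1% lower over all genes. The melanocyte master factor mitfa had 9.05 and 9.14 against 6.85 and 6.08, and the purine synthesis gene gart, used for iridophore crystals, had 15.44 and 15.09 against 13.35 and 12.85. The pigment enzymes tyr (-0.09) and dct (0.24), chosen after their values were seen, did not pass.

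Genes of heme synthesis and erythroid development fell in 17 of 38 cases and rose in 3, with a median of -1.27. The heme pathway enzyme urod had 12.78 and 13.07 at 24 hpf and 10.01 and 9.34 at 96 hpf, and the erythroid master factor gata1a had 11.00 and 10.65 against 8.27 and 7.87. Both were lower in larvae, by 3.26 ± 0.40 and 2.76 ± 0.43 on the log2 scale. The membrane skeleton gene ank1a rose, with 11.87 and 11.24 against 13.17 and 13.56. Of 12 globins, 4 rose and 4 fell. The embryonic globin hbbe2 had 12.65 and 11.89 against 15.70 and 14.60, and hbae4 had 11.36 and 10.80 against 9.51 and 7.71. The globins outside red cells were higher: neuroglobin (ngb) had 6.31 and 6.01 against 9.41 and 10.50, and cygb2 rose at least 16.8-fold. The embryonic globin hbbe3 had 16.69 and 16.59 at 24 hpf, and 12.56 and 6.39 at 96 hpf, so its fall of 7.17 ± 1.00 rests on larval arrays that lay far apart. Blood vessel genes rose in 6 of 41 cases and fell in 5, below the shares over all genes, and 3 and 2 rose without the 96 hpf control array and the 96 hpf copper array. The capillary gene plvapb had 11.34 and 10.83 against 13.21 and 13.31, and the chemokine receptor cxcr4a had 12.50 and 11.87 against 10.40 and 9.98.

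Immune genes were mostly higher where they were called. Complement and coagulation genes rose in 22 of 43 cases and none fell. Complement c3a.2 had 7.59 and 6.99 at 24 hpf and 11.12 and 13.20 at 96 hpf, and vitronectin vtna had 11.29 and 11.24 against 13.95 and 14.02. Antimicrobial, interferon and inflammatory genes rose in 18 of 39 cases and none fell, and 9 rose without the 24 hpf copper array. The iron hormone hamp had 4.85 and 3.76 against 9.13 and 9.40, and the cytokine feedback gene socs3a had 8.78 and 7.53 against 12.69 and 13.79. Every larval value exceeded every embryonic one in these 4 genes. Neutrophil and macrophage genes rose in 16 of 43 cases and fell in 2, and 9 and 10 rose without the 24 hpf copper array and the 96 hpf copper array. The granulin genes grna.1 and grna.2 differed by 5.65 ± 0.70 and 5.52 ± 0.63, with larval arrays at 9.14 and 11.69 for the first. The protease ctss2.1 fell from 15.82 and 15.60 to 11.23 and 10.48. Lymphoid genes rose in 6 of 31 cases, or 19.4% against 17.3% over all genes, and fell in 1. The thymic chemokine ccl25b had 7.25 and 7.07 against 11.71 and 12.28, its receptor ccr9a rose at least 6.63-fold, and the lymphoid factor ikzf1 fell by 1.49. The recombinase gene rag1 (0.88), chosen after its values were seen, did not pass.

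In the digestive organs the 2 larval arrays lay apart for many genes. Exocrine pancreas genes rose in 19 of 33 cases and fell in 1, with 9 members dim at 24 hpf. The number that rose was 6 and 3 without the 24 hpf control array and the 24 hpf copper array, 27 without the 96 hpf control array and 14 without the 96 hpf copper array. Their median of 3.30 became 5.65 without the 96 hpf control array and 1.33 without the 96 hpf copper array. The trypsinogen prss59.2 had 5.59 and 4.91 at 24 hpf and a mean of 14.89 at 96 hpf, with 16.79 on the copper array, and carboxypeptidase cpb1 had 4.88 and 4.84 against 9.31 and 13.16. Both larval values were above both embryonic ones, with rises of 9.64 ± 0.81 and 6.37 ± 0.76. Of 33 pancreas genes, 29 were higher on the 96 hpf copper array than on the 96 hpf control array, by a median of 4.38. Over all genes this held for 5422 of 12332. The direction would turn with the file names. The amylase gene amy2a, chosen after its values were seen, had 8.45 and 7.22 against 7.71 and 12.96, with ages that overlapped, and did not pass. Intestinal genes rose in 20 of 39 cases and fell in 3, with a median gap of 1.95 between the larval arrays. Without the 24 hpf control array or the 24 hpf copper array, 9 and 6 rose. Their median of 1.77 became 3.43 without the 96 hpf control array and 1.00 without the 96 hpf copper array. The brush border protein vil1 had 6.82 and 6.13 against 12.80 and 15.18, and the bile acid carrier fabp6 had 5.46 and 5.03 against 8.55 and 12.71. The apolipoprotein apoa4a fell, with 14.25 and 13.78 against 12.11 and 10.54.

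Liver genes rose in 31 of 55 cases and none fell. The liver fatty acid binding protein fabp10a had 6.26 and 5.29 at 24 hpf and 12.83 and 15.13 at 96 hpf, angiotensinogen agt had 5.25 and 3.78 against 11.58 and 13.04, and the tyrosine degradation enzyme hpdb had 6.11 and 5.18 against 12.70 and 13.40. The tryptophan degradation enzyme tdo2a rose at least 166-fold from levels not well above background. Of 55 liver genes, 49 were higher on the 96 hpf copper array, by a median of 0.70, against 5422 of 12332 over all genes. Larval and embryonic values did not overlap in the 4 named genes. Over all 3993 called genes, the age difference was larger between the copper arrays than between the control arrays in 2995, which covered 83.5% of genes that rose and 65.2% of those that fell. Whether treatment, exact stage or hybridization sets this gap was not tested. If the file names are right, the age difference of these 2995 genes was larger between the control arrays instead.

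Lipid carriers and fatty acid genes rose in 26 of 72 cases and fell in 5, and 17 rose without the 24 hpf copper array. The apolipoprotein apoda.1 had 7.38 and 6.85 against 11.70 and 11.25. Cytochrome P450 genes rose in 21 of 63 cases and fell in 8, and 13, 7 and 13 rose without the 24 hpf control array, the 24 hpf copper array and the 96 hpf copper array. The bile acid enzyme cyp8b1.1 rose at least 153-fold, cyp2n13 had 4.73 and 4.12 against 7.83 and 11.47, and cyp4t8 had 11.25 and 11.60 against 7.54 and 8.97. Conjugating and antioxidant enzymes rose in 38 of 102 cases and fell in 6, and 17 and 19 rose without the 24 hpf copper array and the 96 hpf copper array. Glutathione transferase gstp1.1 had 4.42 and 4.01 against 10.85 and 12.92, mitochondrial superoxide dismutase sod2 had 10.03 and 9.52 against 13.77 and 14.33, and the peroxidase gpx8 had 10.50 and 10.86 against 8.60 and 7.73. Of 6 yolk-related genes, the vitellogenin vtg7 fell (9.47 and 8.61 against 7.86 and 7.08) and the lipoprotein receptor vldlr rose (12.05 and 11.37 against 13.48 and 13.38).

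Endocrine pancreas genes rose in 9 of 23 cases, with the glucagon gene gcga at 6.59 and 6.11 at 24 hpf and 9.98 and 10.76 at 96 hpf. Kidney genes rose in 13 of 35 cases and fell in 1, and 8, 5 and 7 rose without the 24 hpf control array, the 24 hpf copper array and the 96 hpf copper array. The phosphate carrier slc34a2a, which the intestine also makes, rose at least 35.7-fold by the mean of its larval arrays. These arrays lay far apart, at 6.69 and 11.56. The thiazide-sensitive carrier slc12a3 fell from 11.56 and 11.00 to 9.11 and 9.52. Genes of the thyroid, adrenal and steroid axis rose in 9 of 27 cases and fell in 2. The glucocorticoid-responsive chaperone fkbp5 had 6.82 and 7.36 against 13.09 and 13.80, a rise of 6.35 ± 0.40. The cholesterol importer star, which acts just before the side-chain cleavage step, rose from 5.44 and 5.26 to 8.93 and 9.45, opposite to the early enzyme cyp11a1.1 described above. Circadian genes rose in 12 of 36 cases and fell in 1: the clock repressor nr1d2a had 8.57 and 8.39 against 13.40 and 14.38, and the light repair gene cry5 had 8.91 and 7.89 against 5.66 and 5.59. The labels give no hour of day for collection at either age.

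Respiratory chain and ATP synthase genes rose in 8 of 88 cases and none fell, below the 17.3% over all genes, around a median of 0.41, and 15 rose without the 24 hpf control array. Cytochrome oxidase cox4i1 had 16.59 and 16.36 at 24 hpf and 16.66 and 16.67 at 96 hpf and did not pass, while cox4i2 had 9.56 and 8.53 against 12.46 and 13.35. The gene cox6a1 had 16.35 and 16.00 against 16.46 and 16.71, and cox6a2, the heart and muscle form in mammals, had 7.08 and 5.68 against 9.83 and 10.98. The second form of each pair rose, by 3.86 ± 0.48 and 4.03 ± 0.60. Of the mitochondrial nucleotide carriers, slc25a5 had 16.85 and 16.78 against 17.02 and 17.04, with 6 of 10 probes of that sign, and slc25a4 had 10.51 and 10.71 against 16.28 and 16.58. The genes cox4i1, cox6a1 and slc25a5 were chosen after their values were seen.

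Glycolysis and gluconeogenesis genes rose in 25 of 46 cases and fell in 2. Pyruvate kinase pkmb had 10.73 and 10.45 against 16.03 and 16.36, phosphofructokinase pfkma had 8.61 and 8.15 against 13.58 and 14.22, and the muscle fructose bisphosphatase fbp2 had 9.81 and 9.08 against 14.64 and 15.17. Their rises of 5.61 ± 0.30, 5.52 ± 0.41 and 5.46 ± 0.39 were each far above the gap between arrays of one age. Citric acid cycle genes rose in 4 of 16 cases, with mdh2 at 14.12 and 14.20 against 15.37 and 15.51, and the dehydrogenase subunit gene dldh fell, from 12.01 and 12.82 to 9.65 and 8.95. Ion pumps and proton pump subunits rose in 24 of 47 cases and none fell. The sodium pump subunit atp1b2b had 7.61 and 6.29 against 11.92 and 12.49. Of 239 solute carriers, 69 rose and 20 fell, and 34 and 39 rose without the 24 hpf copper array and the 96 hpf copper array. The sodium and calcium exchanger slc8a4b fell from 15.22 and 15.05 to 9.94 and 9.83, the largest fall of the list at 5.25 ± 0.32. Connexins and aquaporins rose in 14 of 33 cases and fell in 5, and the glycerol channel aqp9b rose at least 67.1-fold.

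Cytosolic heat shock chaperones rose in 8 of 40 cases and fell in 7, or 20.0% and 17.5% against 17.3% and 15.1% over all genes. The gene hsc70 had 7.09 and 6.30 at 24 hpf and 14.71 and 14.82 at 96 hpf, while the constitutive hspa8, chosen after its values were seen, had 16.97 and 16.68 against 16.95 and 17.01. The rise of hsc70 was 8.07 ± 0.41, whereas hspa8 differed by 0.15, a sign that 2 of its 11 probes shared. Of the small heat shock genes, hspb15 rose and hspb1 fell, with hspb15 at 6.33 and 5.28 against 9.56 and 10.85 and hspb1 at 15.57 and 15.24 against 13.62 and 13.32. Endoplasmic reticulum folding and secretion genes fell in 8 of 52 cases and rose in 4, and 3 and 2 fell without the 24 hpf copper array and the 96 hpf copper array. The 8 and 4 members are 15.4% and 7.69% of that list, against 15.1% lower and 17.3% higher over all genes. The factor creb3l3l rose from 11.77 and 11.55 to 13.80 and 13.88, and the calreticulin gene calr3b fell from 9.61 and 11.66 to 8.90 and 7.81, with embryonic arrays farther apart than larval ones. Lysosomal genes rose in 8 of 38 cases and fell in 9, or 21.1% and 23.7% against 17.3% and 15.1% over all genes. Their median was -0.21, and cathepsin ctsl.1 had 7.44 and 6.45 against 12.19 and 13.74. Tubulins rose in 4 of 19 cases and fell in 1, or 21.1% and 5.26%, around a median of -0.14. The tubulin tuba2 had 12.47 and 12.33 against 15.56 and 15.42.

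Immediate early and stress transcription factors, which respond within minutes to stimulation, rose in 13 of 29 cases and none fell. The neuronal activity gene npas4a rose at least 343-fold, with larval values of 11.92 and 12.85 against dim embryonic ones. The growth response gene egr4 had 5.73 and 4.47 at 24 hpf and 10.57 and 11.95 at 96 hpf, fosab had 8.88 and 7.37 against 13.35 and 13.14, and klf9 had 5.32 and 4.08 against 8.21 and 9.42. The ages did not overlap in these 4 genes. Copper and metal handling genes rose in 7 of 30 cases, or 4 without the 96 hpf copper array, and fell in 2. The list's median of -0.09 turned to 0.05 with 75th-percentile scaling. The plasma copper carrier ceruloplasmin (cp) had 11.19 and 10.72 against 13.88 and 14.80, and the zinc exporter slc30a1b had 7.94 and 7.76 against 4.86 and 5.20. Metallothionein mt2, chosen after its values were seen, had 13.17 and 13.19 against 13.71 and 14.26 and did not pass (limma adjusted p = 0.0599).

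Genes whose symbols differ only in a final a or b, called duplicate pairs here, gave 1221 pairs with both members tested. Pairing went by name alone, so the members of a pair need not be true duplicates. In 137 pairs (11.2%) both rose, in 50 (4.10%) both fell and in 24 (1.97%) one rose while the other fell. In 468 pairs (38.3%) a single member was called, and in 542 (44.4%) neither was. The opposite pairs named here were chosen after their values were seen. The methyltransferase pair smyd1a and smyd1b parted: smyd1a had 13.05 and 12.78 at 24 hpf and 15.67 and 15.41 at 96 hpf, a rise of 2.63, against the fall of 3.83 of smyd1b. The desmins were a second muscle pair. Desmin desma, an intermediate filament of striated muscle, had 16.53 and 16.38 against 15.84 and 15.86, and desmb, which is also on the smooth muscle list, rose at least 148-fold from dim embryonic values to 10.26 and 12.08. The stathmins, which destabilize microtubules, split as well, with stmn1a at 15.12 and 14.95 against 13.82 and 13.05 and stmn1b at 13.84 and 13.61 against 15.84 and 16.05. Of the rpe65 pair, rpe65a had 9.26 and 8.64 against 13.12 and 13.51, and rpe65b had 12.94 and 12.73 against 11.70 and 11.25. The glutamate transporter slc1a3b rose at least 5.07-fold where slc1a3a fell by 2.34 on the log2 scale, and the zinc exporter slc30a1a rose by 1.05 where slc30a1b fell by 2.82. In each of these pairs both members were separated by age, in opposite directions.

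**Figure D5:**
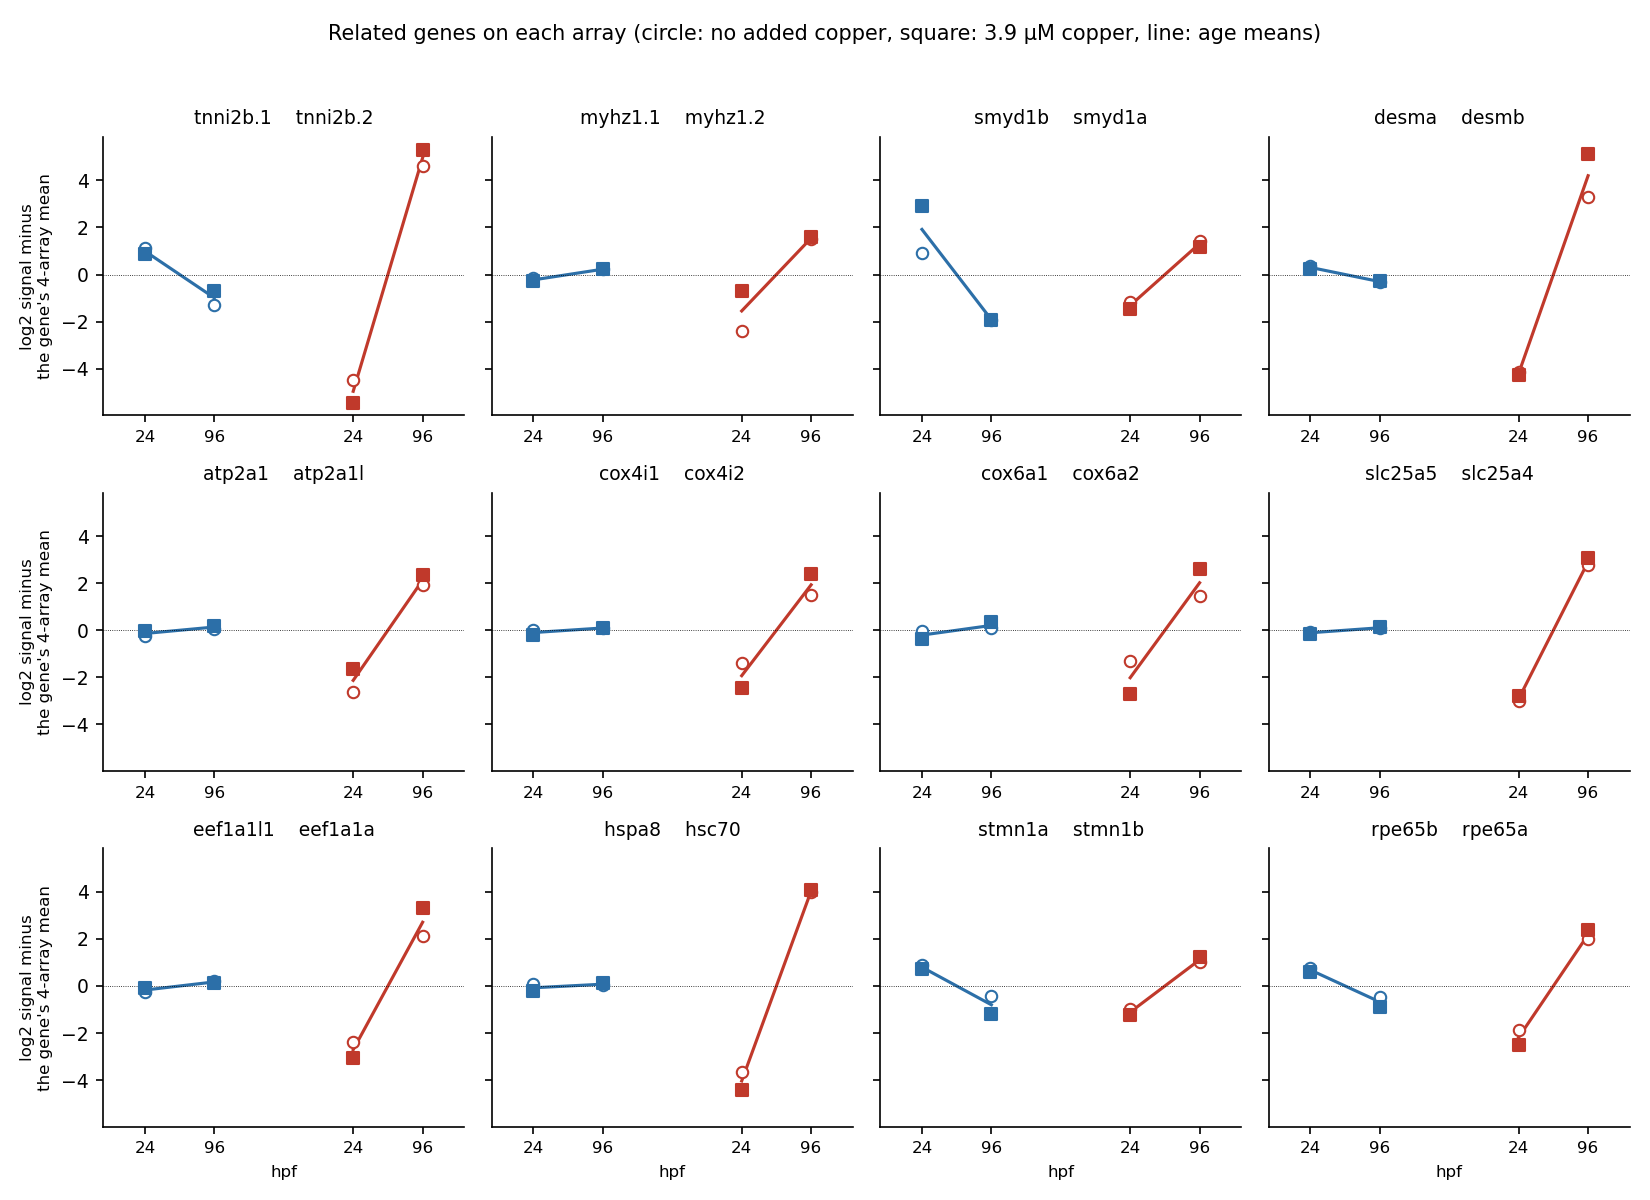
Log2 signal minus the gene's mean over 4 arrays (vertical axis) at 24 and 96 hpf for 12 pairs of related genes; circles are arrays without added copper, squares arrays with 3.9 µM copper, and lines join the means of each age. In each panel the gene on the right rises, as cox4i2 by 3.86 and slc25a4 by 5.82, while the gene on the left falls, as smyd1b, or moves little, as cox4i1 and slc25a5.

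Probe positions on build Zv9 come from the authors' deposited table and are given for 3 genes described above. The authors' deposited table places the prss59.2 probe at chr16:28259049-28259108 on the plus strand, the six7 probe at chr7:8229775-8229834 on the minus strand and the rhcga probe at chr7:15177562-15177621 on the plus strand. Whether these positions lie in coding or untranslated exons was not analysed here.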

How the data were processed

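Whole animals staged by morphology gave RNA through TRIzol, per the labels' protocols. Per the design text in the labels, labelling used Quick Amp 5.7, and arrays were read with Feature Extraction 11.0.1.1 and quantile normalized by the authors in GeneSpring GX 11.5.1, with genes detected on at least 2 of 4 arrays kept and selected by fold change. The deposited scanner files, per the file headers, hold processed signal intensity per spot, on build Zv9. All 4 arrays share 1 slide and 1 scan time.

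From 43603 probes, 34 whose spots were all outlier-flagged on at least 1 array were removed, and log2 of the deposited processed signal (no offset) was quantile normalized over the 4 arrays. Probes clearly over background on 2 or more arrays were fitted in limma 3.58.1 (R 4.3.3) as age plus treatment, with eBayes and a trend, and p-values were adjusted by Benjamini-Hochberg over 36026 probes. The median prior was 9.19 degrees of freedom against 1 residual, so the spread is mostly borrowed across probes. A log2 difference of 1 is a fold of 2 in the normalized signal. Of the kept probes, 25957 were named for 13366 genes through RefSeq accessions, used for names only, and 17612 had no name. A gene dim on both arrays of one age is given as a bound on its fold in the main normalization. The mean of the other age is set against the dimmest signal well above background on each dim array. Where the gene's own signal was higher, that was used. Other settings gave log2 differences below such bounds, down to 7.50 for tcnba and 3.44 for slc34a2a.

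The 89 families (42 symbol lists, 47 name patterns) and the members were chosen with earlier results of these data known, and 51 genes were taken out by name after values were seen. Named genes were, per family, the 3 largest called in the more frequent direction and 2 in the other that were measured on all 4 arrays with one sign under 3 normalizations, the 2 largest bounds in each direction, the 2 brightest members of families with fewer than 2 calls, the 12 largest overall in each direction with the 6 largest bounds, and the stage markers. The 16 value columns that matched no sample were not used. Normexp (offset 50) used the median spot intensity. Sequences and promoter motifs were not analysed here, and a few results are not reported here. The fit was tested on simulated data of 36026 probes for the age comparison, where it recovered 6%, 42%, 92% and 94% of true log2 differences of 1, 2, 3 and 4 with 33 false calls. The simulation changed 50 probes at each size, set no treatment effect and drew its spread from the fit's own prior. It therefore does not give the recovery or the error rate in the real data. Tables and figures used Python 3.11.15, pandas 2.3.3, numpy 2.4.6 and matplotlib 3.10.9. With 2 arrays per age the number of arrays limits the precision.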

Additional observations from a re-analysis of the deposited data

Results flagged for a closer look

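The rule set out above named 448 genes. In 5 of them, the age difference had one sign between the control arrays and the other between the copper arrays. None of these 5 passed the age test. Genes chosen after their values were seen lie outside this count, and among those amy2a and hspa8 also had opposite signs. Such a gene can hardly pass, because the test takes the gap between these age differences as its residual. The difference between the treatments was not tested, since each age holds 1 array of each treatment. The alanyl-tRNA synthetase gene aars1 differed by 0.1189 in copper and -0.1781 in control. The globin hbae3 differed by -0.2357 and 0.2441, and the myelin gene mpz by 2.0677 and -0.0254. The yolk gene vtg2 differed by 0.1124 and -0.594, and the egg envelope gene zp3b by 0.2004 and -0.7828.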

How the results depend on the processing

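Across 13 alternatives, some counts of probes or genes called moved by over 1.5 times. This happened with the dim-probe filter, the treatment assignment at 24 hpf, the fold threshold and some arrays left out. Below that limit, the fit without a trend had 1245 genes lower and 75th-percentile scaling had 1416. The cause was not tested beyond the construction of each setting. Requiring 4-fold left 3449 of 5364 probes and 1311 of 2136 genes higher, and 2103 of 5670 probes and 525 of 1857 genes lower. With no filter on dim probes, 2635 probes and 938 genes were lower. With treatment exchanged at 24 hpf only, 9075 probes and 2948 genes were lower. Leaving out 1 array gave 3987 to 5254 probes and 1519 to 2183 genes higher, and 3174 to 5649 probes and 1021 to 1770 genes lower, the fewest lower without the 96 hpf copper array. Without the 24 hpf copper array 3723 probes were lower. Opposite duplicate pairs, an added count, numbered 24 and ranged from 7 with no filter to 73 with treatment exchanged, with 13 for eBayes without a trend, 13 without the 24 hpf copper array and 9 without the 96 hpf copper array. Counts in the more frequent direction stayed within 1.5 times in every alternative run on families in 36 of 89 families. The 4-fold threshold was not applied to the named genes. Of 442 named genes called, 309 kept their call in every other alternative that tested them, and 133 lost it in at least 1. A gene that a filter dropped was not counted as lost. The helicase ddx27 turned from 1.61 to -0.52 when its detected probes were averaged. Of calls on genes, 53.5% were higher, and 59.4% with 75th-percentile scaling. Leave-one-out fits used age alone and assume that a lone array varies like the others. The treatment covariate in the main fit compares the ages within each treatment. No pairing by clutch was possible, because the groups share only replicate number 1. A dim signal near background limits what can be said of falls in weakly bound probes.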
